A study of Mus musculus with 4 samples.

Results

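Atp5j and Atp5l, which encode subunits of the mitochondrial ATP synthase, Slc25a3, which encodes the mitochondrial phosphate carrier, and Ucp3, which encodes a homologue of the uncoupling protein of brown fat, were examined in brown adipocytes with NT-PGC-1α and in their empty vector controls. On the probes that the study lists for them, Ucp3 was 5.74-fold higher with NT-PGC-1α, Slc25a3 2.11-fold, Atp5j 1.60-fold and Atp5l 1.30-fold. Other probes that carry the same gene identifiers did not all follow. For both ATP synthase genes, 1 further probe was slightly lower with NT-PGC-1α, by 1.12-fold for Atp5j and 1.11-fold for Atp5l. Neither decrease held when arrays were centred on the 75th percentile of their signals. The Atp5j probe then overlapped between the groups, at a ratio of 1.04, and the Atp5l probe was 1.05-fold higher. That centring shifts the median of all probes by 0.221 on the log2 scale. Under the other normalizations both probes stayed lower without overlap.

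The 4 genes are 4 of 1615 genes with a named probe, and they were represented by 9 of 33012 probes. Of these, 4 probes are paired with the gene symbols in the study's list of regulated genes, and each of these is called the listed probe. The remaining 5 share at least 1 gene identifier of the array's annotation with a listed probe. The list was selected on these same arrays, by an increase above 25% or a decrease of at least 1.5-fold, together with a p-value. The methods do not say whether this p-value was adjusted. The direction and the size of the listed probes are therefore what chose them, and their values are a description. At the threshold for increases, the listed Atp5l probe lay just inside at 1.30-fold, and the Slc25a3 probe 593450, which is not listed, lay just outside at 1.22-fold.

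The cells were immortalized brown preadipocytes of FVB mice, transduced with a lentivirus that carried either NT-PGC-1α or no insert. NT-PGC-1α, hemagglutinin-tagged here according to the methods, is a short splice form of PGC-1α, the coactivator of mitochondrial gene programs. Both groups were differentiated alike, with 2 days of induction by a mix of indomethacin (250 µM), dexamethasone (2 µg/ml), isobutylmethylxanthine (0.5 mM), triiodothyronine (1 nM) and insulin (20 nM), and then 5 days on the last 2 alone. The RNA of a group was combined into 1 pool, of 2 RNA samples by the deposited description and of 3 by the methods, and each of the 2 pools was hybridized to 2 arrays, A and B. Each group is therefore 1 pool, no test of NT-PGC-1α was possible, and every error given is the spread between technical arrays. How many independent transductions or clones lie behind each pool is not given in the sources used here.

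ATP synthase sits in the inner mitochondrial membrane and lets protons flow back into the matrix to drive the synthesis of ATP. The product of Atp5j is part of the peripheral stalk that holds the enzyme's head still, and that of Atp5l, subunit g, lies in the membrane part, where the enzyme forms dimers. The phosphate carrier brings in the phosphate that ATP synthase joins to ADP. Brown adipocytes are known for a low content of ATP synthase and for UCP1, which lets protons return without making ATP. UCP3 is related to UCP1 and is found in brown fat and skeletal muscle, and its transport function is debated.

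Ppargc1a, the gene of the overexpressed protein, read 114 and 136 in the empty vector pool against 1077.7 and 714 in the NT-PGC-1α pool at its listed probe, 7.05-fold higher, with a range of 5.26 to 9.46 over the 4 ways to pair arrays across the groups. A second Ppargc1a probe, 747719, gave 226 and 149 against 258 and 345, a 1.63-fold difference. The 4 arrays had median signals from 395.1 to 448.3 before normalization. Log2 signals of arrays A and B correlated across probes at 0.991 in the empty vector pool and 0.990 in the NT-PGC-1α pool, and those of arrays of different pools at 0.956 to 0.957.

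Because a coactivator acts through the DNA-binding factors at a gene, the sequence before each start site is shown, as the 250 bases upstream in the RefSeq annotation of GRCm38.p6, 5′ to 3′ on the gene's strand. Capitals mark matches, on either strand, to the motifs searched other than the E-box. Ucp3 lies at chr7:100472741-100472990 on the plus strand, and on the minus strand lie Slc25a3 at chr10:91123968-91124217, the second of 2 Atp5j start sites at chr16:84834977-84835226 and Atp5l at chr9:44920743-44920992.
Ucp3: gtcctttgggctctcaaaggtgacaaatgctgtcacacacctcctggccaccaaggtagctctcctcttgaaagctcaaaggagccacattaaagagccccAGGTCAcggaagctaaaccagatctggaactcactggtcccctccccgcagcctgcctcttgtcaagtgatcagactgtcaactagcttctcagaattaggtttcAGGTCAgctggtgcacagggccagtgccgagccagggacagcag
Slc25a3: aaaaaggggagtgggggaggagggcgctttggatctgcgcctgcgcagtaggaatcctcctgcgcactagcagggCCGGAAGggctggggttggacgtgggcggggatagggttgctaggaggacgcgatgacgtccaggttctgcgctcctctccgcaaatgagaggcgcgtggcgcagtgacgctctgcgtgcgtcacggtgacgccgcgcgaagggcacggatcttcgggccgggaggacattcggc
Atp5j: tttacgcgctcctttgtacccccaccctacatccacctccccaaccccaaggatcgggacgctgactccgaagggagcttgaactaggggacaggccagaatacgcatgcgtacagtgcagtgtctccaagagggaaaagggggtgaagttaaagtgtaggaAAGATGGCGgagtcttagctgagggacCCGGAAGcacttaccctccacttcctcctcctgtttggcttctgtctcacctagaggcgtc
Atp5l: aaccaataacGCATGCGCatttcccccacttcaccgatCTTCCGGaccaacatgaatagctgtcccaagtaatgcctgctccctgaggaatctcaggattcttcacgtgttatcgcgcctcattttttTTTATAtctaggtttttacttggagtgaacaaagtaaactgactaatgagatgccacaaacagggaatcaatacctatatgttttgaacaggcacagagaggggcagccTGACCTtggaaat

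The motifs were searched in windows from 250 bases before to 50 bases after the start site, on both strands, and compared with 32851 such windows. The nuclear receptor core AGGTCA was found in the windows of Ucp3, at 149 and 44 bases before the start, and Atp5l, at 13 bases before it, and 16.3% of all windows hold it. Its extended form TNAAGGTCA, which contains the core and is known from estrogen-related receptors, is in 1.28% of all windows, and the direct repeat DR1 of PPAR and RXR is in 0.0396%. Neither was found in the 5 windows of the 4 genes, nor was the cAMP response element TGACGTCA, which 1.79% of windows hold. No match says only that these letters are not in these windows. Looser forms of the motifs, which the factors may also bind, were not searched.

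The ETS motif CCGGAAG, read by NRF2 (GABP) among other factors, was found in the windows of Slc25a3, Atp5l and the second Atp5j start site and is in 8.86% of all windows. The core GCGCATGC of NRF1, a regulator of nuclear genes for mitochondrial proteins, was searched as these exact letters and in no looser form. As such it was found in Atp5l alone among the 4 genes, 240 bases before the start, against 2.71% of all windows. The YY1 motif AANATGGCG was found in Slc25a3 and in the second Atp5j window, against 2.38%. Ucp3 held none of these 3. A TATAAA match, present in 13.6% of windows, lay in the Atp5l window, on the opposite strand and 122 bases before the start. The E-box CANNTG, present in 72.3%, lay in the windows of Ucp3, Slc25a3 and Atp5l, once over the Ucp3 core match nearest the start. The first Atp5j window, at chr16:84835626-84835875 in its upstream part, held no match. GC content was 55.0% for Ucp3, 49.0% for Atp5l, 65.7% for Slc25a3, and 77.0% and 57.7% for the Atp5j windows, beside a median of 52.7% over all windows. CpG dinucleotides numbered 5 in Ucp3, below the median of 7, and 12 to 43 in the other 4 windows.

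**Figure D1:**
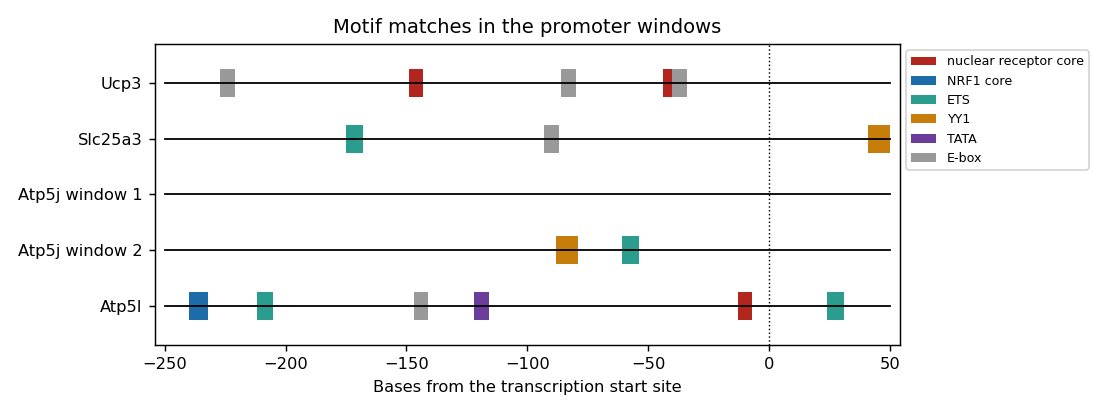
Positions of motif matches in the 5 promoter windows of the 4 genes, with the distance from the start site in bases on the x axis and 1 line per window. Nuclear receptor core matches lie in the windows of Ucp3 and Atp5l, E-box matches in those of Ucp3, Slc25a3 and Atp5l, and ETS matches in those of Slc25a3, Atp5l and the second Atp5j start site.

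Ucp3 had the largest fold of the 9 probes. Its single probe, 645596, read 173 and 190.1 after normalization in the empty vector pool, against 1018.5 and 1064.2 for NT-PGC-1α. Both NT-PGC-1α arrays were far above both empty vector arrays, while arrays A and B of the same pool differed by 1.10-fold and 1.05-fold. The fold was 5.74, with a range of 5.36 to 6.15 over the 4 pairings. Its mean signal stood at percentile 52.8 of all probes, so that the empty vector signals were low ones. An offset of 111.9, the 5th percentile of all signals, added before the log2 step lowered the fold to 3.93.

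UCP3 is also a protein of skeletal muscle, and of 21 skeletal muscle markers 6 had a named probe, of which 3 were higher and 3 lower with NT-PGC-1α. All 6 were named by the study's list of regulated genes, so these are selected probes. Of all named probes, 52.9% were higher and 41.8% lower without overlap. Mb, which encodes myoglobin, was at 28098 and 27959 in controls against 106680 and 102400 with NT-PGC-1α, 3.73-fold higher. Tnnt3, a fast troponin T, was 6.85-fold higher, from low control signals of 146 and 174, and Tnnc1, the slow and cardiac troponin C, 1.77-fold higher. Myog, the myogenic factor myogenin, was 2.78-fold lower, the fast myosin heavy chain Myh4 1.53-fold lower and the myosin light chain Myl2 1.55-fold lower. The summed signal of the 6 was 35900 and 35770 in controls against 115200 and 110800 with NT-PGC-1α, and most of it was Mb. The part of these markers in the Ucp3 result was not tested. In pools of RNA, more cells of a type and more RNA per cell cannot be told apart.

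Slc25a3 was higher at both of its probes, by different amounts. The listed probe, 379766, read 508 and 451 in the empty vector pool against 1036 and 989 in the NT-PGC-1α pool. Both NT-PGC-1α arrays were above both controls, and the fold of 2.11, with a range of 1.95 to 2.30, was larger than the 1.13-fold and 1.05-fold between arrays of a pool. Probe 593450, which carries a second identifier beside that of Slc25a3, read 54192 and 52927 against 64839 and 65430, which is 1.22-fold, with a range of 1.20 to 1.24. Without normalization its arrays overlapped, at 1.11-fold.

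Within each array, the ratio of the listed Slc25a3 probe to the other one, taken from the deposited signals, does not depend on how arrays are scaled. That ratio was 1.71-fold higher on the NT-PGC-1α arrays, with a range of 1.59 to 1.85 over the pairings, so the probes did not move alike. Levels of different probes are not comparable, and which transcripts each probe detects is not given in the sources used here.

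Atp5j was higher at its listed probe and slightly lower at its other one. The listed probe, 577127, read 9830 and 10730 for empty vector against 15728 and 17170 for NT-PGC-1α. Both NT-PGC-1α arrays exceeded both empty vector arrays, by 1.60-fold with a range of 1.47 to 1.75, beside 1.09-fold between the arrays of each pool. Probe 900726, which carries the Atp5j identifier and 2 more, had 301590 and 323040 against 284950 and 273510, and the groups did not overlap here either. It was 1.12-fold lower, with a range of 1.06 to 1.18, and this was close to the 1.07-fold between the empty vector arrays. The listed probe relative to the other, within arrays, was 1.63-fold higher with NT-PGC-1α (range 1.49 to 1.78).

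Atp5l had 4 probes, 3 higher and 1 lower with NT-PGC-1α. The listed probe, 898872, gave 597980 and 600320 for empty vector against 769060 and 784730 for NT-PGC-1α. Its fold of 1.30, with a range of 1.28 to 1.31, was the smallest of the listed probes and the closest between arrays, at 1.00-fold and 1.02-fold within the pools. Its mean signal stood at percentile 99.6, among the brightest probes of the array.

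Probe 896328, with 1 identifier beside that of Atp5l, gave 16534 and 17567 against 30105 and 28395, a 1.72-fold difference (range 1.62 to 1.82). Probe 901609, also with 1 further identifier, gave 62379 and 64065 against 85657 and 90659, which is 1.39-fold (range 1.34 to 1.45). On both, the NT-PGC-1α arrays lay above the empty vector arrays, and both were more than 25% higher although they are not listed. Probe 904530 carries the Atp5l identifier alone, as the listed probe does, and gave 679060 and 666920 against 602610 and 606510. Its NT-PGC-1α arrays were the lower ones, by 1.11-fold with a range of 1.10 to 1.13, beside 1.02-fold and 1.006-fold between arrays of a pool.

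The 2 probes that carry only the Atp5l identifier therefore moved apart. In the deposited signals, before normalization, the ratio of the listed probe to probe 904530 within an array was 0.897 and 0.877 for empty vector and 1.24 and 1.30 for NT-PGC-1α, and the change of this ratio, not its level, is what can be read. This change of 1.43-fold, with a range of 1.38 to 1.48, is free of the scaling between arrays, although centring on the 75th percentile, which shifts the median of all probes by 0.221 on the log2 scale, puts probe 904530 at 1.05-fold higher. With the log2 signals of the 2 probes averaged, Atp5l was 1.08-fold higher, and averaged over all 4 of its probes 1.29-fold higher. RefSeq annotates the pseudogenes Atp5l-ps1 and Atp5l-ps2, and whether any of the 4 probes reads their sequence was not tested. The 5 further identifiers on the probes of the 4 genes occur on no other probe of the array and are paired with no symbol here.

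**Figure D2:**
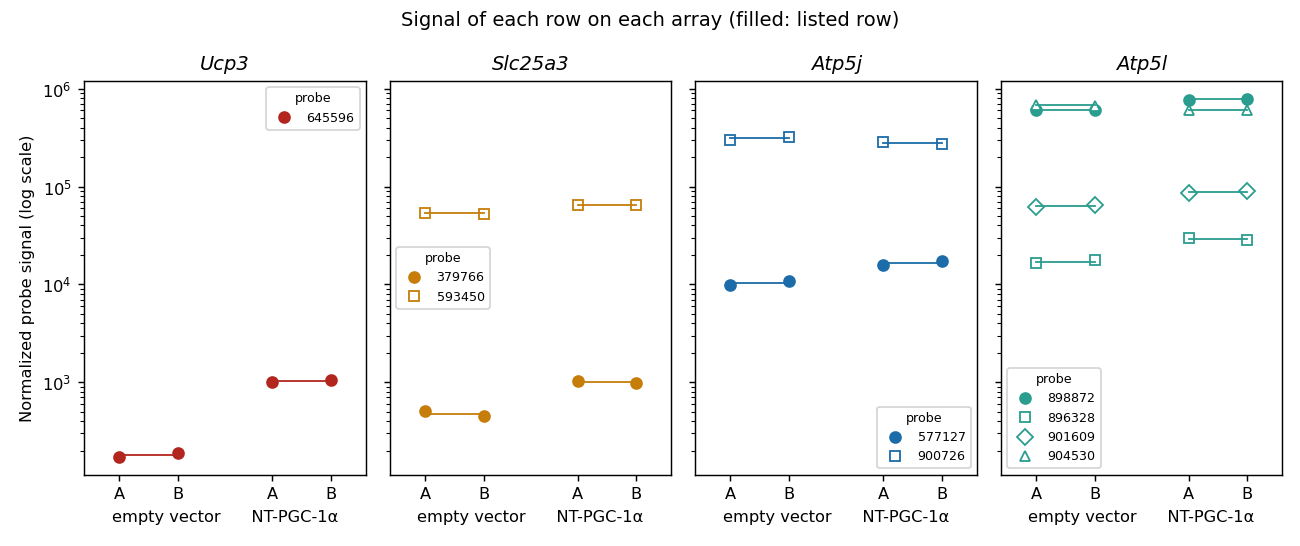
Normalized signal (log scale) of each probe of the 4 genes on arrays A and B of each pool, where filled symbols are the listed probes and horizontal lines are the means of the arrays. Listed probes sit higher with NT-PGC-1α for every gene, from 181 to 1041 on average for Ucp3, whereas probe 904530 of Atp5l and probe 900726 of Atp5j sit slightly lower.

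**Figure D3:**
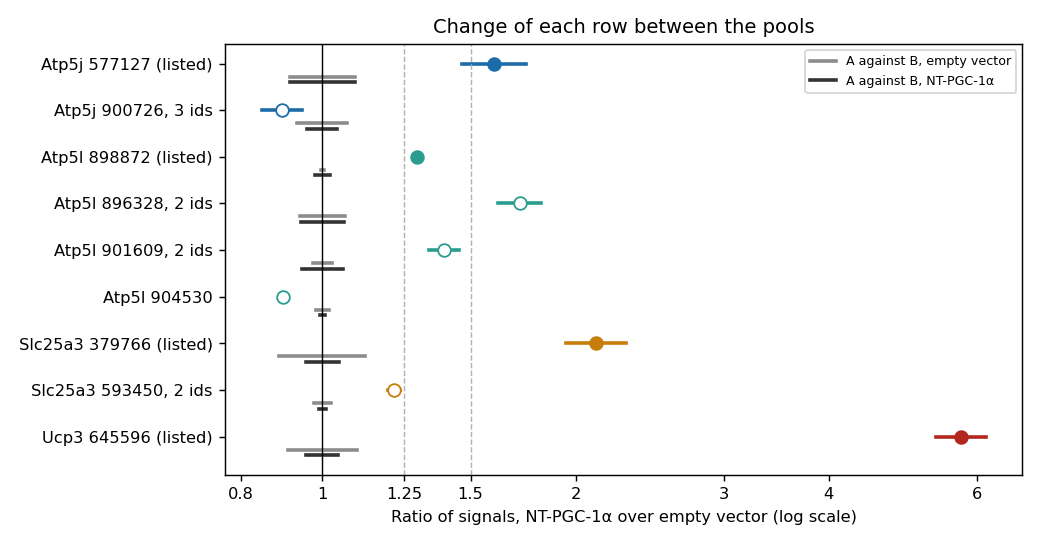
Ratio of NT-PGC-1α to empty vector (log scale) for each of the 9 probes, with coloured bars for the range over the 4 pairings of arrays, grey and black bars for the ratio of array A to B within each pool drawn to both sides of 1, and dashed lines at 25% and 50% higher. Ratios run from 0.894 at probe 900726 of Atp5j to 5.74 for Ucp3, and ids counts the identifiers of a probe.

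Over all 9 probes, 7 were higher and 2 lower with no overlap of NT-PGC-1α and control arrays. The median ratio was 1.39 beside 1.006 over all probes, but the 4 listed probes, selected for their increase, enter it. It was 1.84 for those 4 and 1.22 for the other 5. Among all 33012 probes, 36.3% were higher and 35.4% lower without overlap, so that lack of overlap was common on these arrays. An increase of 25% or more was found at 6 of the 9 and at 26.2% of all probes, and one of at least 1.5-fold at 4 of the 9 and at 16.9% of all. The 4 listed probes were all among the 6, as the selection required, and nothing is read from their count.

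The 5 probes that are not listed were all in the brightest 25% of probes, where folds were smaller. In that range, 15.5% were higher by 25% or more, and 3.70% reached 1.5-fold. Of the 5, 2 were higher by 25% or more and 1 reached 1.5-fold, all of them Atp5l probes, and the median ratio of the 5 was 1.22. The 5 were found through the same identifiers on the same arrays, and these counts are a description.

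**Figure D4:**
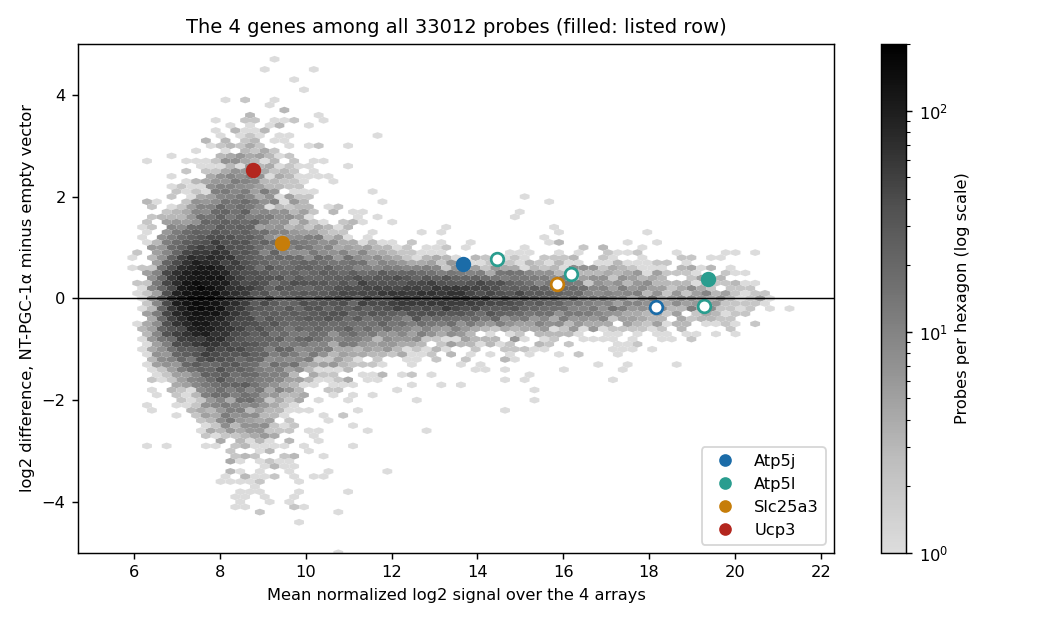
Difference in mean log2 signal, NT-PGC-1α minus empty vector, against the mean log2 signal for all 33012 probes (grey hexagons, shaded by number of probes on a log scale), with the 9 probes of the 4 genes in colour and the listed ones filled. Differences of all probes narrow as signals rise, Ucp3 lies at 2.52 in the wide, dim range and the ATP synthase probes in the narrow, bright range, and 9 probes fall beyond the axis of ±5.

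The size of each fold moved with the normalization more than its direction did. Across 8 ways of scaling, correcting or filtering the signals, Ucp3 lay between 3.93-fold and 6.79-fold, and Slc25a3 at its listed probe between 1.90-fold and 2.29-fold. The listed Atp5j probe was lowest without normalization, at 1.41-fold. The listed Atp5l probe was at 1.247-fold without normalization and 1.2495-fold with cyclic loess, and at 1.497-fold with centring on the 75th percentile.

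**Figure D5:**
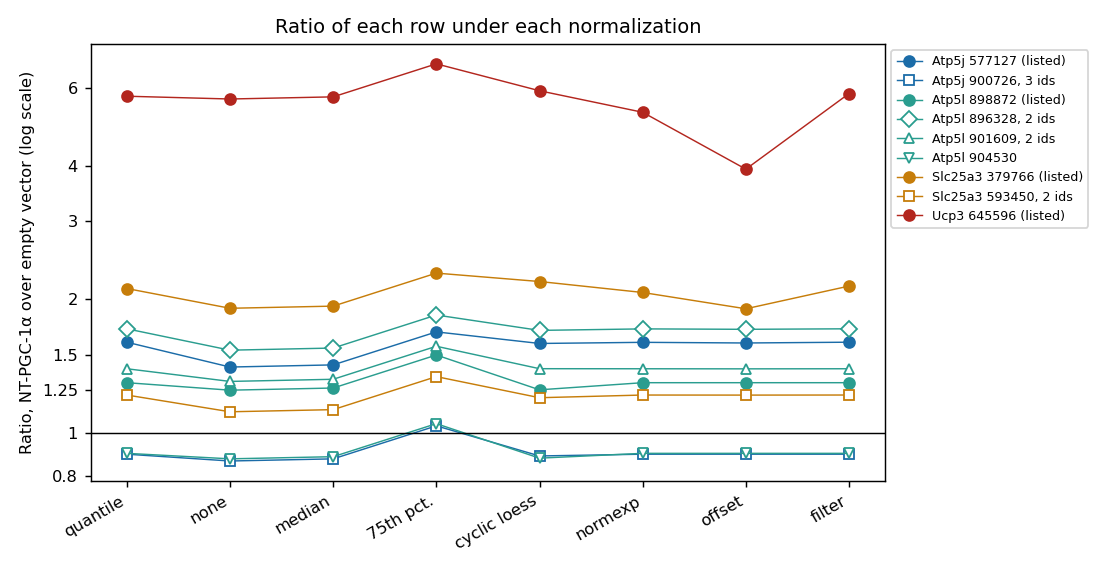
Ratio of NT-PGC-1α to empty vector (log scale) for the 9 probes of the 4 genes under 8 treatments of the signals, with filled symbols for the listed probes. All listed probes stay above 1 throughout, and probes 900726 and 904530 cross 1 only with centring on the 75th percentile, at 1.04, where the arrays of 900726 overlap, and 1.05.

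Other genes of the same pathways could be examined only where a probe was named, and the study's list names regulated genes, so these counts describe selected probes. Of all 1635 named probes, 52.9% were higher and 41.8% lower without overlap, 50.6% were higher by 25% or more and 30.2% reached 1.5-fold. Among 22 genes of the ATP synthase and its assembly, the 2 with a named probe were Atp5j and Atp5l themselves. Of 56 names of the mitochondrial carrier family, to which both the phosphate carrier and UCP3 belong, 5 had a named probe and all 5 were higher, with a median ratio of 1.67 beside 1.27 over all named probes. Ucp1 had no named probe and was not analysed here.

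The 3 other carriers were closer in fold to the listed Slc25a3 probe than to Ucp3. Slc25a20, the carnitine and acylcarnitine carrier that brings fatty acids to beta-oxidation, read 5378 and 5871 in controls against 9324 and 9389 with NT-PGC-1α, 1.67-fold higher (range 1.59 to 1.75). Slc25a11, the oxoglutarate carrier, was 1.34-fold higher (range 1.28 to 1.41), and Slc25a12, an aspartate and glutamate carrier, 1.31-fold higher (range 1.30 to 1.32). None of the 3 overlapped between groups. The range of Slc25a20 lay below that of the listed Slc25a3 probe, and all 3 lay below that of Ucp3. All 3 lay above the range of the other Slc25a3 probe, 593450, at 1.22-fold (range 1.20 to 1.24).

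The V-type ATPase, a proton pump of lysosomes and other vesicles that spends ATP, served as a contrast to ATP synthase. Of its 24 names 2 had a named probe. Atp6v1a1, which names a catalytic subunit, read 159 and 138 against 342 and 310, 2.198-fold higher, and Atp6v1e2, a stalk subunit isoform best known from testis, read 472 and 365 against 165 and 199, 2.29-fold lower. The probes moved in opposite directions by similar folds, and their median ratio of 0.979 changed side with the setting, to 1.06 with median centring, 1.26 with centring on the 75th percentile and 1.08 without empty vector array A. Genes of the respiratory chain, which builds the proton gradient that ATP synthase uses, had 17 named probes for 15 genes. Of these, 14 were higher and 3 lower, 13 were higher by 25% or more, of which 7 reached 1.5-fold. Their median ratio was 1.42, beside 1.27 for all named probes, 1.60 for the listed Atp5j probe and 1.30 for the listed Atp5l probe. Selection for increases and decreases enters all of these counts. Their range ran from 0.456 at a Uqcrc1 probe to 2.01 at Ndufb4, a complex I subunit. A second Uqcrc1 probe was 1.45-fold higher, so probes of 1 gene also disagreed there. Averaged over all probes sharing their identifiers, Atp5j was 1.20-fold and Atp5l 1.29-fold higher. Over the 2 probes with the Atp5l identifier alone, the mean was 1.08-fold.

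Markers of the labelled cell type could hardly be checked, since of 19 adipocyte markers only Retn, which encodes resistin, had a named probe. It read 851 and 1015.5 in controls against 1663.5 and 1534 with NT-PGC-1α, 1.72-fold higher. Preadipocyte and fibroblast markers, 3 of 12 with a named probe, were all lower, and all 3 were named by the list, which takes decreases from 1.5-fold on: Thy1 by 8.59-fold, Col1a1 by 1.59-fold and Col3a1 by 1.503-fold, and their summed signal fell from 406000 and 447700 to 268600 and 287200. Macrophage markers had 2 of 9 named, with Cd68 2.43-fold lower and Cd14 1.37-fold higher. The part of these marker differences in the folds of Ucp3, Slc25a3, Atp5j and Atp5l was not tested.

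The pattern over the 4 arrays was compared between each listed probe and the 1634 other named probes, by the Euclidean distance of log2 signals centred on each probe's mean. Nearest to Ucp3 were Rapgef3 at 0.018, V1rh17 at 0.051 and Syk at 0.074. Nearest to Slc25a3 were Spa17 at 0.018, Gstt1 at 0.028 and Tnk1 at 0.043. Nearest to Atp5j were Grb14 at 0.021, Setbp1 at 0.033 and Gpatc2 at 0.048, and nearest to Atp5l were Mpi1 at 0.015, Slc6a8 at 0.017 and Tpd52 at 0.017. The likeness rests on 4 arrays from 2 pools, and a near probe has nearly the same fold by construction of the distance.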

How the data were processed

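RNA of brown adipocytes with NT-PGC-1α or the empty vector was measured on ABI Mouse Genome Survey arrays. The values are an intensity on a linear scale that the authors deposited for 33012 probes on 4 arrays, not normalized between arrays. By the methods, arrays were read on a chemiluminescent analyzer, and quantile normalization and filters on signal to noise ratio and flags followed in R 2.2.1, which the submitters' processing notes also name. Those later steps are not in these values, and whether background had been subtracted is not given in the sources used here, so no probe is called detected or not.

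Log2 signals were normalized by quantiles across arrays (R 4.3.3, limma 3.58.1), with no offset and no probe removed. For a fold, the arrays of each group were averaged on the log2 scale, and the difference was returned to the linear scale, with the range over the 4 pairings of arrays as its error. Arrays A and B share 1 RNA pool and are technical, so n is 1 pool per group and p-values are not given. The number of arrays limits the precision.

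Probes were named by the study's list of regulated genes (1342 probes) or by a RefSeq accession (293 probes), and 31377 stayed unnamed. The genes named are the 4 genes at each of their probes, every named probe of the carrier, ATP synthase and V-type ATPase lists, the highest and lowest of the respiratory chain, marker genes, the 3 nearest patterns of each listed probe, and Ppargc1a. Further Uqcrc1, Mb and other probes singled out were picked after their values were seen. The 4 genes and all lists were chosen with earlier results of these data known.

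Alternatives were cyclic loess, centring on the median or on the 75th percentile, no normalization, normexp (offset 50), adding the 5th percentile of signals before the log2 step, a filter at the array median (17726 probes kept), each array left out, the array letter as a block, and means over probes with identical identifiers. The mean over all probes sharing an identifier and the background in the brightest 25% of probes and in the named probes were added after seeing the data. A planned comparison of protein sequences was not run. The recovery of known folds after quantile normalization was tested on simulated data. Other steps were run in Python 3.11.15 (numpy 2.4.6, pandas 2.3.3, matplotlib 3.10.9).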

Additional observations from a re-analysis of the deposited data

How the results depend on the processing

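All 4 listed probes were higher with NT-PGC-1α under every alternative run. A fold is said here to have moved where its log2 value changed by at least the standard deviation over the 4 pairings. A moved fold can therefore still lie within the range of the pairings. Ucp3 moved to 6.79-fold with 75th percentile centring, 5.28-fold with normexp and 3.93-fold with the offset. Slc25a3 moved to 1.91-fold without normalization, 1.93-fold with median centring, 2.29-fold with 75th percentile centring and 1.90-fold with the offset, and to 1.60-fold as the mean of both its probes. Atp5j moved to 1.41-fold without normalization, 1.42-fold with median centring and 1.20-fold as the mean of its probes. Atp5l moved to 1.247-fold without normalization, 1.2495-fold with cyclic loess, 1.26-fold with median centring, 1.497-fold with 75th percentile centring and 1.08-fold as the mean of the 2 probes with its identifier alone, a mean that could be formed for Atp5l only. Averaged over all 4 of its probes Atp5l stayed at 1.29-fold. With 75th percentile centring probe 900726 stood at a ratio of 1.04 with overlapping arrays, and probe 904530 at 1.05 without overlap. Leaving out each array gave 5.48 to 6.02 for Ucp3, 1.99 to 2.24 for Slc25a3, 1.53 to 1.67 for Atp5j and 1.28 to 1.31 for Atp5l. Probes higher by 25% or more numbered 5 to 7 and those at least 1.5-fold higher 3 to 5 across the alternatives, while with 75th percentile centring the shares among all probes rose to 39.7% and 27.95%. The array letter as a replicate block left every fold as it was, for example 5.74 for Ucp3, since the difference of means is the same. After quantile normalization, the A minus B differences of the 2 pools correlated at -0.018 across probes. Before it, array B had a lower median signal than A in both pools: 398.4 against 448.3 for empty vector and 395.1 against 442.1 for NT-PGC-1α. Whether the letters mark arrays processed together was not tested. The filter removed both V-type ATPase probes. With it, the median ratio of the skeletal muscle markers, taken over those it kept, went from 1.08 to 1.77. The latter is also the ratio of Tnnc1 without the filter, so this change need not mean that the fold of any marker moved. With 1 pool per group, differences between cultures were not measured, and without a measure of background the folds of dim probes such as Ucp3 are the least certain.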
